A study of Mus musculus with 11 samples.

Results

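The 10 genes described here belong to the retinoid visual cycle and were measured in 11 mouse retinas. They were chosen by symbol, as the rows of the count table whose Ensembl identifier belongs to Rdh8, Rdh12, Abca4, Rbp3, Rlbp1, Rdh10, Rgr, Rdh5, Rpe65 or Lrat. All 10 were found among the 37991 genes of the table, and all 10 passed the filter on low counts that left 17099 genes for testing. By their usual place of expression 4 belong to photoreceptors (Rdh8, Rdh12, Abca4, Rbp3), 3 are shared by Müller glia and the retinal pigment epithelium (Rlbp1, Rdh10, Rgr), and 3 belong to the pigment epithelium (Rdh5, Rpe65, Lrat).

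Each retina came from the right eye at postnatal day 24 and gave 1 polyA library. The rd10 GSK group (n = 3) held mice of the strain B6.CXB1-Pde6brd10/Jrd10, which carries a mutant allele of the rod phosphodiesterase gene Pde6b, given the LSD1 inhibitor GSK2879552 (GSK) at 4.2 mg/kg. The rd10 saline group (n = 3) held the same strain given saline. Wild-type GSK (n = 3) and wild-type saline (n = 2) retinas came from C57Bl/6J mice given the same agents. Mice of every group were injected intraperitoneally each day starting at day 9, so no group was left uninjected. Genotype and strain background cannot be told apart here, and neither sex nor litter is given in the sources used here.

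Vision consumes 11-cis-retinal. In the outer segments of rods and cones, light turns the chromophore of the opsins into the all-trans form, ABCA4 moves it across the disc membrane, and the dehydrogenases RDH8 and RDH12 reduce it to all-trans-retinol. IRBP, the product of Rbp3, carries retinoids through the matrix between photoreceptors and epithelium. In the pigment epithelium LRAT makes retinyl esters, RPE65 turns the esters into 11-cis-retinol, and RDH5 oxidises that to 11-cis-retinal, while RDH10 and the opsin RGR take part in a light-driven route found in epithelium and Müller glia, where CRALBP, the product of Rlbp1, binds the 11-cis forms. A dissected neural retina contains the photoreceptors and Müller glia, but holds pigment epithelium only as carry-over.

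The photoreceptor transcripts moved together, and Rlbp1 did not follow them. Rpe65 changed in their direction in rd10 saline and with GSK in rd10, but neither change passed its test. Promoter windows are shown for these genes. Each runs from 250 bases before to 50 bases after the RefSeq transcription start in GRCm38.p6, 5′ to 3′ on the gene's strand, and 9 of the 10 genes had an entry in the RefSeq table (not Rdh10). Capitals mark matches, on either strand, to TAATCC or its reverse complement GGATTA, a core bound by the photoreceptor factor CRX and its relative OTX2, and to TGCTGA or its reverse complement TCAGCA, a half-site of the MAF family to which the rod factor NRL belongs.
Rdh8, chr9:20818244-20818543, + strand: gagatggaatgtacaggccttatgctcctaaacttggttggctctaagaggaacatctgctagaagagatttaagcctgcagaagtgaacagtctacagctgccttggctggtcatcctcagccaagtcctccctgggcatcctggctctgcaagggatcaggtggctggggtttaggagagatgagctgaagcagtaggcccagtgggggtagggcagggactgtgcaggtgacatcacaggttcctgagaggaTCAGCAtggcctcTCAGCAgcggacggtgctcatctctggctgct
Rdh12, chr12:79208663-79208962, + strand: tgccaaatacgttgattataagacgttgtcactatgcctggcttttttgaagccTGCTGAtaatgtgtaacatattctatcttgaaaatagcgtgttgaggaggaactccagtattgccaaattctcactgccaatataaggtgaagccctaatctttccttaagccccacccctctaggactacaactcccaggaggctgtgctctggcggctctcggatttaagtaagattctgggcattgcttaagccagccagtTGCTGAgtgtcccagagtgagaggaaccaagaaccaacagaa
Abca4, chr3:122044210-122044509, + strand: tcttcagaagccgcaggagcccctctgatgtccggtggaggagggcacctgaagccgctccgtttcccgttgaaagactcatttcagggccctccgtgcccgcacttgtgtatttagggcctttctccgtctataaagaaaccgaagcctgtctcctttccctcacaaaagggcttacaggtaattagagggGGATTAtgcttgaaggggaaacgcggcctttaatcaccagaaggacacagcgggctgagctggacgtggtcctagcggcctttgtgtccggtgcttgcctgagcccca
Rbp3, chr14:33953753-33954052, + strand: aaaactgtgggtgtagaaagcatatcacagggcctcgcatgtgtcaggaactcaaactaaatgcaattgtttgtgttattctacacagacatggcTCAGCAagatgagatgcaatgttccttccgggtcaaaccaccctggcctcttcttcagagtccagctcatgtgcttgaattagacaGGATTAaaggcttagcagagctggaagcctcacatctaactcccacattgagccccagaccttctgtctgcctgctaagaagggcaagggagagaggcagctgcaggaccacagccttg
Rlbp1, chr7:79386978-79387277, - strand: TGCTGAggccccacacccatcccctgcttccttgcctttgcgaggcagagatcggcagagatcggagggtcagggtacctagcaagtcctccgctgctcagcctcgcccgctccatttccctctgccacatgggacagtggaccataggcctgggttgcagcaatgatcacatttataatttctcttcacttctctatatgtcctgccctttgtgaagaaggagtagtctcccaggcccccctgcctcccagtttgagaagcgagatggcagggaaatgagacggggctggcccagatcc
Rpe65, chr3:159598931-159599230, + strand: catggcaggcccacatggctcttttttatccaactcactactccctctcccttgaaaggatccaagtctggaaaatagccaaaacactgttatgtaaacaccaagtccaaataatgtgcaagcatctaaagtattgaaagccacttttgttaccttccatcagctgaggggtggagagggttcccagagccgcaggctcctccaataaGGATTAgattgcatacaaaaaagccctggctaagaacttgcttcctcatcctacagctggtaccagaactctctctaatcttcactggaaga
TAATCC was found in the windows of Abca4 (starting 58 bases before the start site), Rbp3 (69 before) and Rpe65 (42 before), and also in that of Rgr (167 before), against 7.06% of 32851 mouse windows of the same length. TGCTGA was found in those of Rdh8, Rdh12, Rbp3 and Rlbp1, against 19.5% of windows. No 2 matches overlapped. Of the 4 photoreceptor genes, 2 held TAATCC and 3 held TGCTGA; the letters describe the windows and show no binding.

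Libraries held 19657030 to 28053367 counts. Levels are given as CPM, counts per 1000000 counts of a library's total after edgeR's TMM scaling. Lens transcripts (15 markers summed) reached 7392 CPM in rd10 GSK replicate 2 and 724 CPM in wild-type saline replicate 2, against 4.69 to 17.2 CPM in the other 9 libraries. Pde6b averaged 1376 ± 383 CPM in rd10 GSK, 362 ± 51.9 CPM in rd10 saline, 2243 ± 35.4 CPM in wild-type GSK and 2266 ± 49.8 CPM in wild-type saline (SD, n = 3, 3, 3 and 2). The 18 rod markers summed to between 34808 and 65684 CPM in rd10 GSK, 12340 and 14854 CPM in rd10 saline, 79938 and 83222 CPM in wild-type GSK, and 84675 and 86661 CPM in wild-type saline. Nothing in the labels ties animals of different groups to each other.

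The 4 photoreceptor genes fell in rd10 saline retinas to between 18.3% and 38.2% of their wild-type saline means. In rd10 GSK they stood between the saline levels of the 2 genotypes, except Rbp3, which reached 118% of its wild-type saline mean. A gene is said to have risen or fallen where edgeR's quasi-likelihood F-test gave an adjusted p under 0.05 (Benjamini-Hochberg over the 17099 genes). Fewer rods and less RNA per rod cannot be told apart in whole retinas.

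Rdh12, which encodes a retinal reductase of the inner segment, was at 202, 290 and 363 CPM in rd10 GSK, at 88.3, 99.5 and 98.4 CPM in rd10 saline, at 462, 446 and 458 CPM in wild-type GSK and at 530 and 513 CPM in wild-type saline (replicates 1 to 3, or 1 and 2). No 2 of the 4 groups overlapped. It fell by 2.45 ± 0.19 on the log2 scale in rd10 saline against wild-type saline (SE; edgeR adjusted p = 1.28e-05) and rose by 1.58 ± 0.17 with GSK in rd10 retinas (edgeR adjusted p = 0.000168).

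Abca4, the gene of the disc-membrane flippase, had 695, 975 and 1213 CPM in rd10 GSK, 312, 269 and 373 CPM in rd10 saline, 1451, 1519 and 1524 CPM in wild-type GSK and 1583 and 1495 CPM in wild-type saline. The rd10 groups stood apart from each other and below all 5 wild-type libraries, while the wild-type groups overlapped. The change was -2.28 ± 0.20 in rd10 saline against wild-type saline (edgeR adjusted p = 2.87e-05) and 1.60 ± 0.18 with GSK in rd10 retinas (edgeR adjusted p = 0.000229).

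Rdh8, the outer-segment reductase, was measured at 76.8, 104 and 104 CPM in rd10 GSK, 36.4, 33.2 and 41.4 CPM in rd10 saline, 116, 122 and 114 CPM in wild-type GSK, and 136 and 126 CPM in wild-type saline. The order of the groups was the one seen for Rdh12, again with no overlap. Rdh8 fell by 1.82 ± 0.13 in rd10 saline (edgeR adjusted p = 3.87e-06) and rose by 1.36 ± 0.12 with GSK in rd10 (edgeR adjusted p = 2.41e-05).

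Rbp3 was by far the most abundant of the 10 genes. Per kilobase of exon it averaged 1680 ± 114 CPM in rd10 GSK, 546 ± 45.4 CPM in rd10 saline, 1460 ± 37.3 CPM in wild-type GSK and 1428 ± 29.2 CPM in wild-type saline (SD). Its CPM were 8248, 9442 and 9003 in rd10 GSK, 2998, 2618 and 3063 in rd10 saline, 7539, 7934 and 7725 in wild-type GSK, and 7672 and 7453 in wild-type saline. All 3 rd10 GSK libraries were thus above all 5 wild-type libraries, and all 3 rd10 saline libraries far below them. Rbp3 changed by -1.39 ± 0.08 in rd10 saline against wild-type saline (edgeR adjusted p = 7.07e-07) and by 1.62 ± 0.08 with GSK in rd10 retinas (edgeR adjusted p = 4.15e-07).

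**Figure D1:**
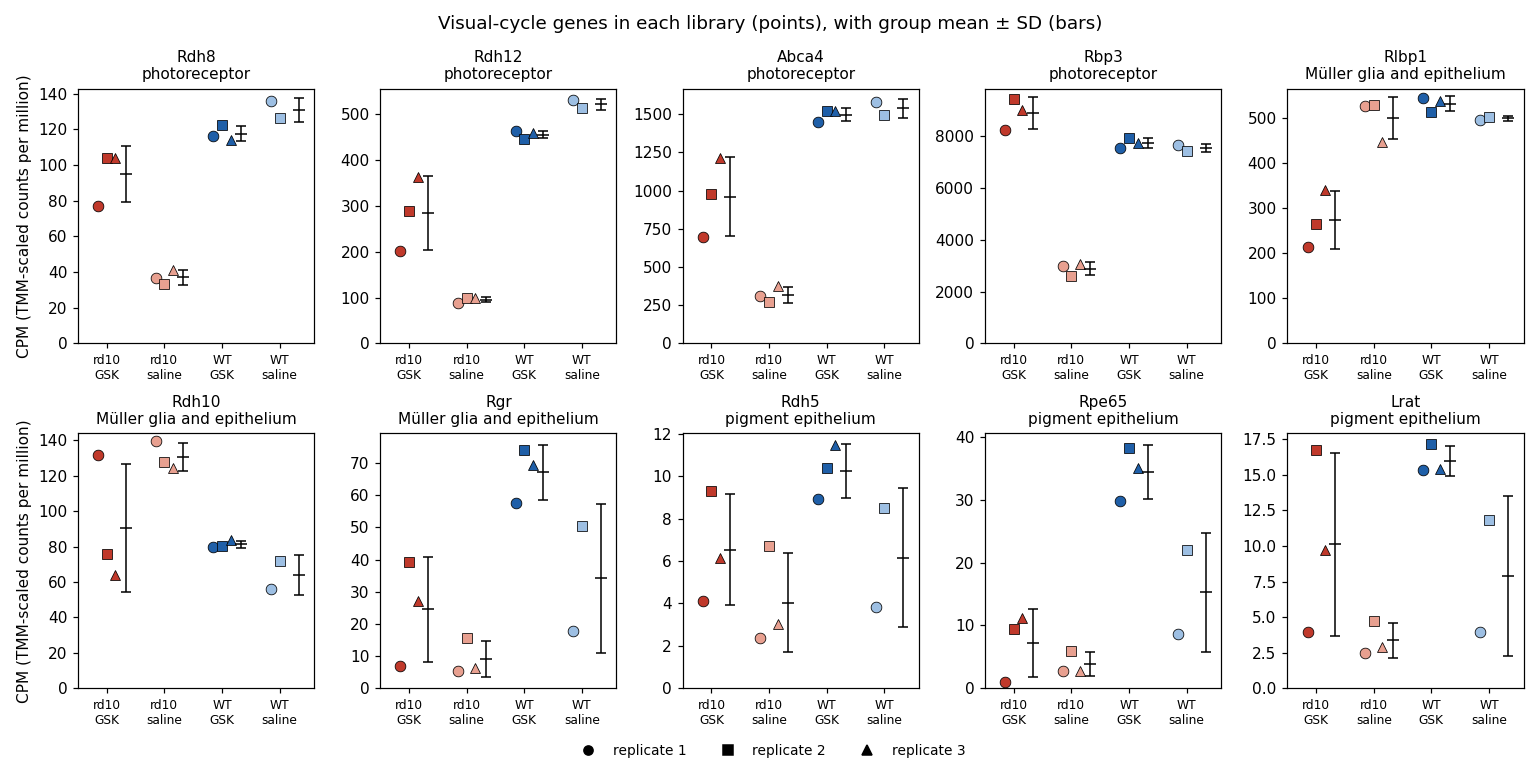
CPM (TMM-scaled counts per 1000000, linear axes from 0) of the 10 visual-cycle genes in each of the 11 libraries, 1 panel per gene, with rd10 GSK, rd10 saline, wild-type (WT) GSK and wild-type saline from left to right. Points are libraries, marked by replicate, and the bars beside them are the group mean ± SD; the 4 photoreceptor genes are lowest in rd10 saline, Rlbp1 is lowest in rd10 GSK, and the pigment epithelium genes and Rgr spread widely within groups.

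In rd10 saline against wild-type saline 5 of the 10 genes were called, beside 40.5% of all tested genes. Among the photoreceptor genes 4 of 4 fell, and 19.0% of all tested genes did. In rd10 GSK against rd10 saline 5 of the 10 were called, beside 32.9% of all tested genes. Here 4 of 4 photoreceptor genes rose, and 17.6% of all tested genes did. Over all called genes of the second comparison 53.6% were higher, against 94.4% when libraries were scaled on inner retina markers. Under TMM those scaling markers changed in that comparison themselves, where 15.2% of all tested genes fell. Of 12 bipolar markers 10 fell and 1 rose (median -0.54). Of 9 amacrine markers 3 fell and 1 rose (median -0.18). Of 10 tested ganglion cell markers 9 fell and none rose (median -0.31). The median change of the 4 genes was -2.05 in the first comparison and 1.59 in the second, beside medians of 0.02 and 0.01 over all tested genes. All 18 rod markers fell in the first comparison (median -2.51) and rose in the second (median 1.70). Of 13 cone markers 1 rose and 2 fell in the first, and 1 rose and 5 fell in the second. These comparisons share the rd10 saline libraries. The 8 calls held without both lens-bearing libraries, with changes of -2.49 to -1.42 in rd10 saline and 1.30 to 1.60 in rd10 GSK.

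Relative to the rods' own transcripts the 4 genes differed among themselves. These ratios were chosen after the values were seen and carry no test. Rbp3 stood at 237, 174 and 137 CPM per 1000 CPM of the summed rod markers in rd10 GSK, 243, 211 and 206 in rd10 saline, 90.6, 96.9 and 96.6 in wild-type GSK, and 88.5 and 88.0 in wild-type saline. Every rd10 library was above every wild-type library. Rdh8 stood at 2.21, 1.92 and 1.58 CPM per 1000 CPM of rod markers in rd10 GSK, 2.95, 2.68 and 2.79 in rd10 saline, 1.40, 1.49 and 1.43 in wild-type GSK, and 1.57 and 1.49 in wild-type saline. For Rdh8, too, all rd10 libraries lay above all wild-type ones, by a margin that was small in rd10 GSK replicate 3. Abca4 had ratios of 17.997 to 19.97 in rd10 GSK, 21.8 to 25.3 in rd10 saline, 17.4 to 19.1 in wild-type GSK, and 17.7 and 18.3 in wild-type saline, so its rd10 GSK range overlapped the wild-type range. Rdh12 behaved likewise, at 5.34 to 5.80 in rd10 GSK, 6.63 to 8.03 in rd10 saline, 5.45 to 5.73 in wild-type GSK, and 6.05 and 6.11 in wild-type saline.

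**Figure D2:**
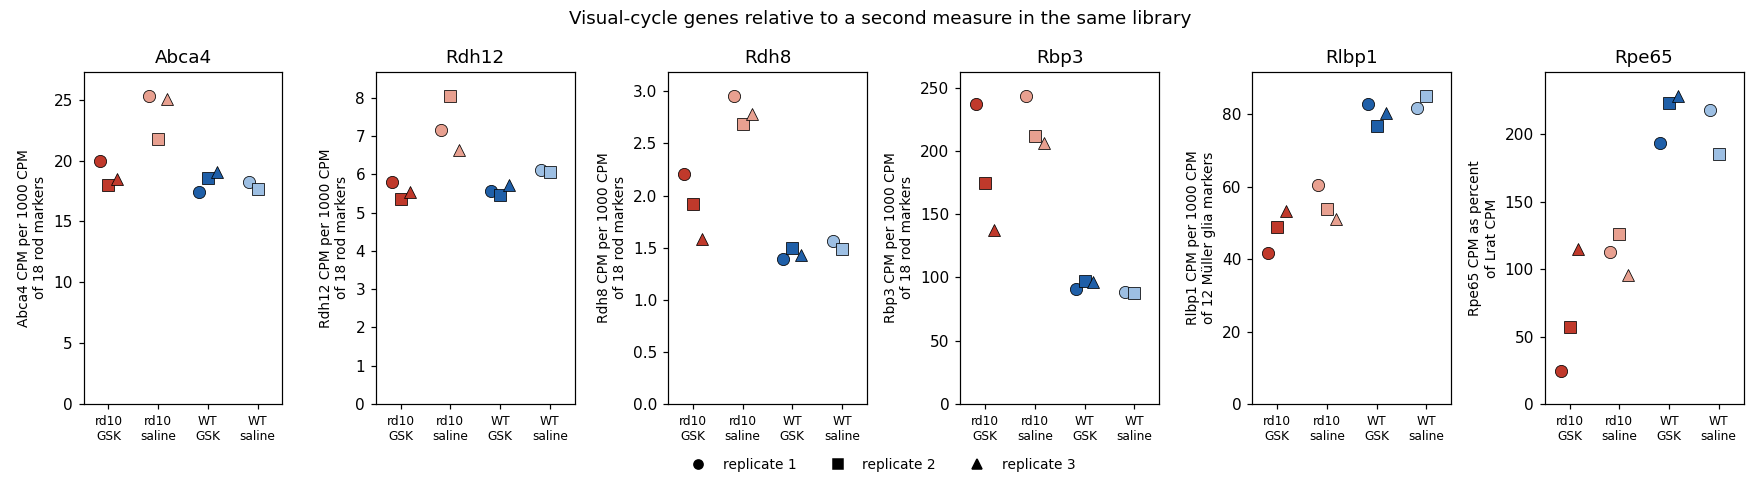
Ratios within each library, linear axes from 0: CPM of Abca4, Rdh12, Rdh8 and Rbp3 per 1000 CPM of 18 summed rod markers, CPM of Rlbp1 per 1000 CPM of 12 summed Müller glia markers, and CPM of Rpe65 as a percentage of Lrat CPM. Each point is a library, with rd10 GSK, rd10 saline, wild-type (WT) GSK and wild-type saline from left to right. For Rbp3, Rlbp1, Rpe65 and, by a small margin, Rdh8 the 6 rd10 libraries do not overlap the 5 wild-type libraries.

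Of the genes shared by Müller glia and epithelium, Rlbp1 was level between the saline groups and fell with GSK in rd10, Rdh10 rose in rd10 saline, and Rgr followed the pigment epithelium genes described further on. Rlbp1, whose product CRALBP binds 11-cis-retinoids, was at 214, 266 and 342 CPM in rd10 GSK, 527, 529 and 447 CPM in rd10 saline, 545, 514 and 539 CPM in wild-type GSK, and 496 and 504 CPM in wild-type saline. The 3 rd10 GSK libraries were below the other 8, which overlapped. Rlbp1 changed by 0.00 ± 0.15 in rd10 saline against wild-type saline (edgeR adjusted p = 0.988) and fell by 0.87 ± 0.14 with GSK in rd10 retinas (edgeR adjusted p = 0.00113), where 15.2% of all tested genes fell.

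The other Müller glia transcripts moved differently from Rlbp1 between the saline groups. Of 12 markers of these cells that are not among the 10 genes, 9 rose and none fell in rd10 saline against wild-type saline (median 0.89, background 21.5% of all tested genes higher), and 8 fell and none rose in rd10 GSK against rd10 saline (median -0.58). The 12 markers summed to between 5139 and 6409 CPM in rd10 GSK, 8727 and 9811 CPM in rd10 saline, 6578 and 6703 CPM in wild-type GSK, and 5931 and 6083 CPM in wild-type saline. Rlbp1 was at 41.7, 48.8 and 53.4 CPM per 1000 CPM of these markers in rd10 GSK, 60.4, 53.9 and 51.2 in rd10 saline, 82.9, 76.6 and 80.5 in wild-type GSK, and 81.6 and 84.9 in wild-type saline. This ratio was lower in all 6 rd10 libraries than in all 5 wild-type libraries, and the rd10 groups overlapped.

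Rdh10, which oxidises retinol to retinal in epithelium and Müller glia, was at 132, 75.8 and 63.9 CPM in rd10 GSK, 140, 128 and 125 CPM in rd10 saline, 79.8, 80.4 and 83.8 CPM in wild-type GSK, and 56.1 and 71.9 CPM in wild-type saline. It rose by 1.03 ± 0.27 in rd10 saline against wild-type saline (edgeR adjusted p = 0.0171), a call that ended without wild-type saline replicate 1 (0.86, adjusted p = 0.12) and without the lens-bearing libraries (1.21, adjusted p = 0.0526). In rd10 GSK, replicate 1 stood within the rd10 saline range and replicates 2 and 3 within the range of the 5 wild-type libraries. The change against rd10 saline was -0.53 ± 0.24 (edgeR adjusted p = 0.123), and without replicate 1 of rd10 GSK it was -0.90 (adjusted p = 6.12e-05). Microglia markers moved with Rdh10: their 12 transcripts summed to between 178 and 373 CPM in rd10 GSK, 591 and 738 CPM in rd10 saline, 107 and 113 CPM in wild-type GSK, and 105 and 109 CPM in wild-type saline, all 12 rose in rd10 saline against wild-type saline and all 12 fell in rd10 GSK against rd10 saline. Astrocyte markers (4 genes) moved likewise, with sums of 105 to 155 CPM in rd10 GSK and 151 to 165 CPM in rd10 saline. Their sums were 86.0 to 90.8 CPM in wild-type GSK and 84.1 to 86.2 CPM in wild-type saline. The summed Müller glia markers, too, were highest in rd10 saline. The part of these cells in the Rdh10 values was not tested.

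The pigment epithelium genes were scarce and varied several-fold between animals of 1 group. Per kilobase of exon in wild-type saline, Rpe65 averaged 7.89 ± 4.90 CPM, Rdh5 2.19 ± 1.17 CPM and Lrat 1.47 ± 1.05 CPM, against 93.2 ± 4.78 CPM for Rdh8, the lowest of the photoreceptor genes (SD, n = 2). None of the 3 was called in either of these comparisons, nor was Rgr.

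Rpe65, the isomerohydrolase gene, was at 0.963, 9.50 and 11.1 CPM in rd10 GSK, 2.75, 6.00 and 2.76 CPM in rd10 saline, 29.8, 38.3 and 35.1 CPM in wild-type GSK, and 8.57 and 22.0 CPM in wild-type saline. The lowest value, in rd10 GSK replicate 1, rests on 25 reads (95% exact binomial (Clopper-Pearson) interval 0.624 to 1.42 CPM, which covers counting error only). All 3 rd10 saline libraries were below both wild-type saline libraries, but the change of -2.00 ± 0.83 did not pass (edgeR adjusted p = 0.0934). It passed without rd10 GSK replicate 1, which takes part through the shared estimate of spread (-2.02, adjusted p = 0.0136). In rd10 GSK against rd10 saline the groups overlapped, with a change of 0.90 ± 0.79 (edgeR adjusted p = 0.426).

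Lrat, which esterifies all-trans-retinol, had 3.93, 16.7 and 9.70 CPM in rd10 GSK, 2.45, 4.75 and 2.88 CPM in rd10 saline, 15.4, 17.2 and 15.4 CPM in wild-type GSK, and 3.92 and 11.9 CPM in wild-type saline. The saline groups overlapped, as did the rd10 groups, and wild-type GSK was the tightest group. The change was -1.24 ± 0.64 in rd10 saline (edgeR adjusted p = 0.163) and 1.59 ± 0.58 with GSK in rd10 retinas (edgeR adjusted p = 0.0702). The change with GSK passed in 6 of 20 other settings: without replicate 1 of rd10 GSK (1.99, adjusted p = 0.018), with inner retina scaling (0.0237), a replicate block (0.0171) or DESeq2 (0.0231), and without either wild-type saline library (0.0481 and 0.0476).

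Rdh5, the 11-cis-retinol dehydrogenase, was at 4.12, 9.32 and 6.15 CPM in rd10 GSK, 2.36, 6.69 and 3.04 CPM in rd10 saline, 8.93, 10.4 and 11.5 CPM in wild-type GSK, and 3.83 and 8.48 CPM in wild-type saline. Its saline groups overlapped, and so did the rd10 groups. The changes were -0.62 ± 0.50 in rd10 saline (edgeR adjusted p = 0.367) and 0.70 ± 0.46 with GSK in rd10 retinas (edgeR adjusted p = 0.278). Exons of Rdh5 overlap those of Bloc1s1 on the same strand, so its counts are uncertain.

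Rgr, the opsin of epithelium and Müller glia, was at 7.01, 39.4 and 27.2 CPM in rd10 GSK, 5.501, 15.6 and 6.41 CPM in rd10 saline, 57.6, 74.1 and 69.5 CPM in wild-type GSK, and 17.7 and 50.6 CPM in wild-type saline. The 3 wild-type GSK libraries were above all others. The change in rd10 saline was -1.91 ± 0.77 (edgeR adjusted p = 0.0863) and that with GSK in rd10 1.42 ± 0.71 (edgeR adjusted p = 0.171). Leaving out rd10 GSK replicate 1 gave -1.92 (adjusted p = 0.0391) and 1.88 (adjusted p = 0.0483).

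Carry-over of pigment epithelium was read from 18 of its markers that are not among the 10 genes, 10 of epithelial function and 8 of the melanin pathway, and none of the 18 was at 0 in any library. The epithelial markers without the keratin gene Krt18, 9 in number, summed to 67.2, 115 and 94.5 CPM in rd10 GSK, 60.2, 108 and 65.6 CPM in rd10 saline, 143, 174 and 169 CPM in wild-type GSK, and 68.6 and 133 CPM in wild-type saline. The rd10 groups overlapped, and wild-type GSK was above every other library. Krt18 was at 165, 173 and 217 CPM in rd10 GSK, 61.6, 64.8 and 61.2 CPM in rd10 saline, 98.8, 111 and 119 CPM in wild-type GSK, and 62.8 and 76.5 CPM in wild-type saline. It held more than the other 9 together in each rd10 GSK library and rose there against rd10 saline (1.56 ± 0.11, edgeR adjusted p = 7.92e-06), so it is given apart, a choice made after its values were seen. By these 9 markers wild-type saline replicate 1 was close to rd10 saline replicates 1 and 3, and all 3 had less Rpe65, Lrat, Rdh5 and Rgr than replicate 2 of their groups. Yet Rpe65 was at 8.57 CPM in wild-type saline replicate 1, above the 2.75 to 6.00 CPM of rd10 saline. Rgr was at 17.7 CPM there, above 5.50 to 15.6 CPM. Lrat (3.92 CPM) and Rdh5 (3.83 CPM) lay within their rd10 saline ranges, 2.45 to 4.75 and 2.36 to 6.69 CPM. The part of carry-over in these differences was not tested. The 8 melanin markers summed to 135, 40.6 and 29.5 CPM in rd10 GSK, 18.9, 41.4 and 23.98 CPM in rd10 saline, 51.5, 58.4 and 89.9 CPM in wild-type GSK, and 26.8 and 46.6 CPM in wild-type saline. In rd10 GSK replicate 1 the melanin sum was the highest of the 11 while Rpe65 was the lowest and Rgr, Lrat and Rdh5 were the lowest of their group, so the melanin markers did not rank that library as the genes did. The 9 epithelial markers did, with their group's lowest sum there.

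**Figure D3:**
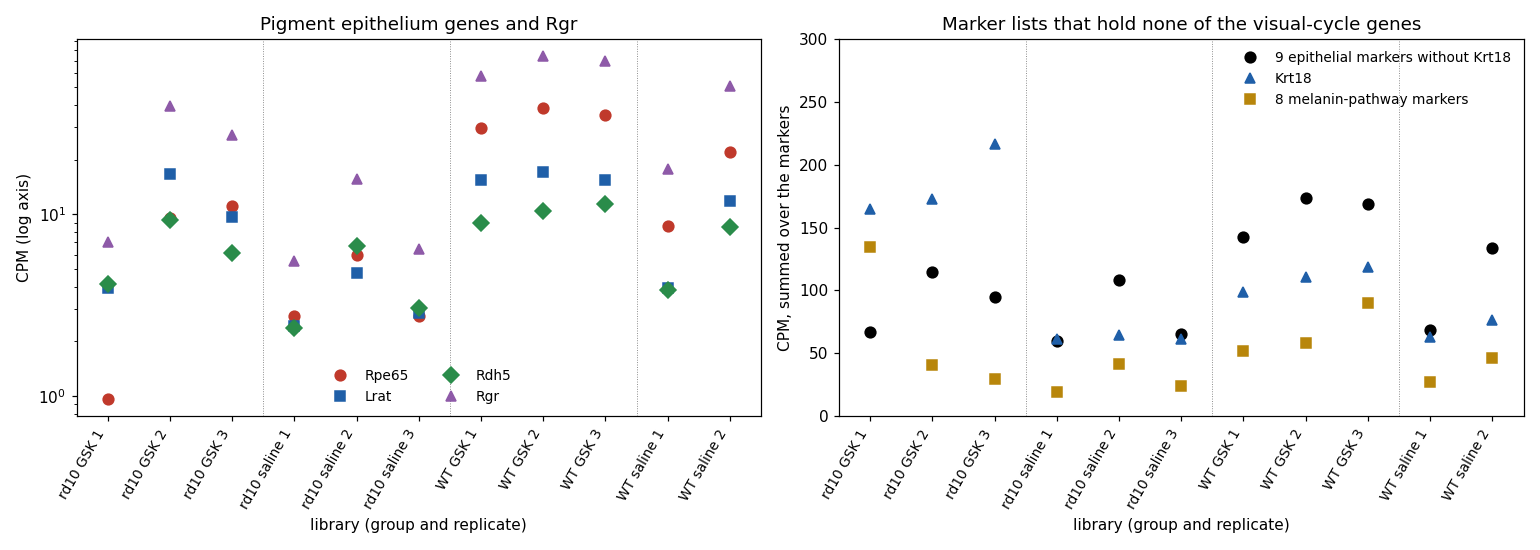
Left, CPM (log axis) of Rpe65, Lrat, Rdh5 and Rgr in each library; right, CPM (linear axis from 0) of Krt18 and the summed CPM of 9 other epithelial and 8 melanin-pathway markers of the pigment epithelium in the same libraries, with rd10 GSK, rd10 saline, wild-type (WT) GSK and wild-type saline from left to right. Within rd10 saline and wild-type saline the genes and the 9 epithelial markers are highest in replicate 2, while rd10 GSK replicate 1 has the highest melanin sum, 135 CPM, and the lowest Rpe65, 0.963 CPM.

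The 18 markers as a whole summed to between 328 and 367 CPM in rd10 GSK, 141 and 214 CPM in rd10 saline, 293 and 377 CPM in wild-type GSK, and 158 and 257 CPM in wild-type saline. Weighted equally, as the mean log2 deviation of each marker from its own mean over the libraries, they stood lower in rd10 GSK, at 0.20, 0.20 and -0.03, than in wild-type GSK, at 0.49, 0.58 and 0.96. The same measure was -0.95, -0.15 and -0.80 in rd10 saline, and -0.70 and 0.21 in wild-type saline. Of the 18, 1 fell and none rose in rd10 saline against wild-type saline (median -0.17), where 40.5% of all tested genes were called. In rd10 GSK against rd10 saline 3 rose, Krt18 among them, and 1 fell (median 1.05), where 32.9% of all tested genes were called. The equal-weight level includes Krt18, which rose with GSK in rd10, and the melanin markers, whose sum was highest in rd10 GSK replicate 1. On the 9 epithelial markers without Krt18 the same measure was -0.58, 0.34 and 0.15 in rd10 GSK. A fit with the equal-weight level of all 18 markers in each library as a covariate was added after the values were seen. In it the slope, as log2 change per log2 unit of marker level, was 1.44 for Rgr, 1.36 for Rdh5, 1.20 for Lrat and 1.05 for Rpe65, against -0.28 to 0.26 for the other 6 genes, though no slope passed (edgeR adjusted p of at least 0.978). The change in rd10 saline against wild-type saline was then -1.53 for Rpe65, -1.29 for Rgr, -0.66 for Lrat and -0.09 for Rdh5, none called. In rd10 GSK against rd10 saline it was 0.73 for Lrat, 0.47 for Rgr, 0.21 for Rpe65 and -0.22 for Rdh5, none called.

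Rpe65 and Lrat, both epithelial, were not in a fixed ratio. Rpe65 CPM were 24.5%, 56.7% and 115% of Lrat CPM in rd10 GSK, 113%, 126% and 95.8% in rd10 saline, 194%, 223% and 228% in wild-type GSK, and 218% and 185% in wild-type saline. All 6 rd10 libraries were below all 5 wild-type libraries. This ratio was chosen after the values were seen and is given with no test.

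In wild-type GSK against wild-type saline none of the 10 genes was called, none had an unadjusted p under 0.05, and neither DESeq2 nor limma-voom called any. Of all tested genes 0.532% were called, 0.444% higher and 0.0877% lower. When only these 2 groups were fitted, 1 of the 10, Rdh12, was called lower. That fit called 916 genes in all, against 91 when all groups were fitted. With all groups fitted under TMM, 83.5% of the called genes were higher, against 96.1% under inner retina scaling. Of the 10 genes 6 were higher in all 3 wild-type GSK libraries than in both wild-type saline libraries and 2 were lower, while 34.4% of all tested genes did not overlap between these groups in 1 direction or the other. The 6 were Rlbp1, Rdh10 and the 4 epithelial-type genes, and these 4 had changes of 1.17 ± 0.80 for Rpe65, 1.01 ± 0.62 for Lrat, 0.97 ± 0.75 for Rgr and 0.73 ± 0.50 for Rdh5 (edgeR adjusted p of at least 0.76). The 18 epithelium markers had a median change of 0.86 there, with none called; their part in these values was not tested. The photoreceptor genes changed by -0.19 ± 0.18 (Rdh12), -0.15 ± 0.13 (Rdh8), -0.04 ± 0.20 (Abca4) and 0.03 ± 0.08 (Rbp3), Rlbp1 by 0.09 ± 0.16 and Rdh10 by 0.35 ± 0.27, with edgeR adjusted p of at least 0.848.

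**Figure D4:**
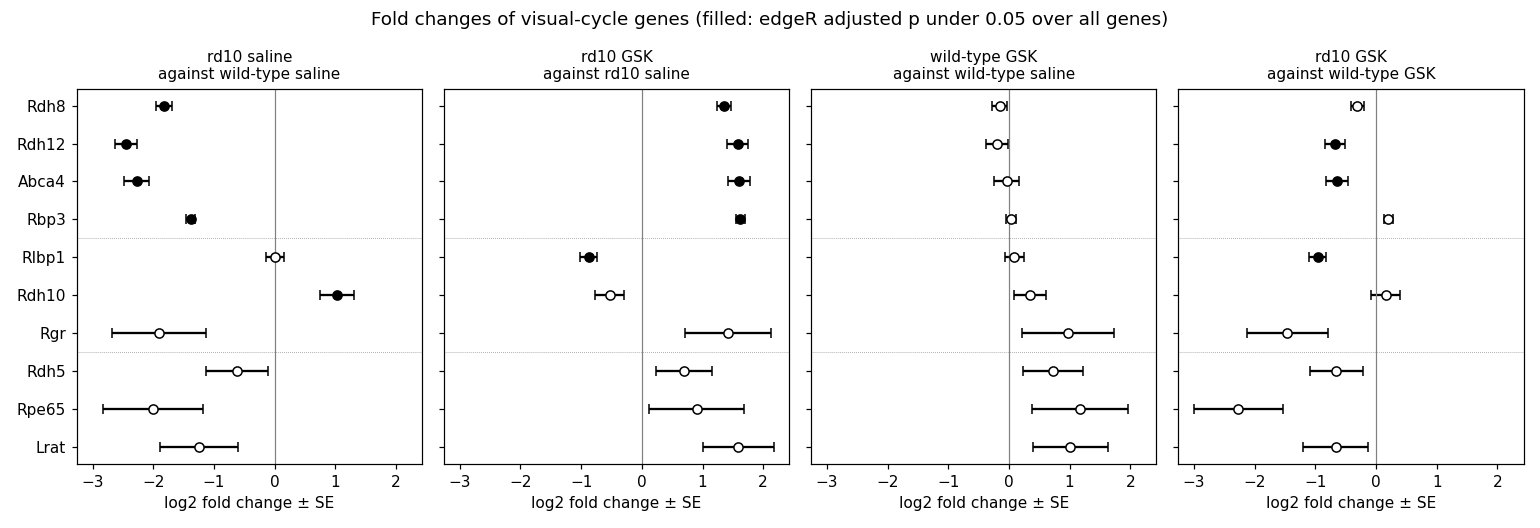
Log2 fold change ± SE of the 10 genes in 4 comparisons, 1 panel each, from edgeR's quasi-likelihood fit over 17099 genes; filled points have an adjusted p under 0.05, and dotted lines divide photoreceptor genes, genes shared by Müller glia and epithelium, and pigment epithelium genes. The photoreceptor genes lie between -2.45 and -1.39 in rd10 saline against wild-type saline, between 1.36 and 1.62 in rd10 GSK against rd10 saline and near 0 in wild-type GSK against wild-type saline, while the error bars of Rgr, Rdh5, Rpe65 and Lrat are wide throughout.

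The effect of GSK differed between the genotypes for 5 of the 10 genes, by the interaction term (rd10 GSK over rd10 saline, relative to wild-type GSK over wild-type saline), which called 12.5% of all tested genes. It was positive for 4 of 4 photoreceptor genes, against 7.49% of all tested genes called higher: 1.77 ± 0.25 for Rdh12 (edgeR adjusted p = 0.00234), 1.64 ± 0.27 for Abca4 (0.00491), 1.59 ± 0.11 for Rbp3 (3.2e-05) and 1.51 ± 0.17 for Rdh8 (0.000446). It was negative for Rlbp1, at -0.96 ± 0.21 (edgeR adjusted p = 0.0154), against 4.98% of all tested genes called lower. The Rlbp1 call ended without either wild-type saline library (adjusted p = 0.0736 and 0.0682) and without both lens-bearing libraries (0.13). Of the called genes 60.1% were higher, and 92.2% under inner retina scaling.

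Against wild-type GSK, rd10 GSK retinas had less of 3 of the 10 genes and more of none, where 26.2% of all tested genes were called, 10.9% lower and 15.4% higher. Rlbp1 fell by 0.96 ± 0.14 (edgeR adjusted p = 0.00158), Rdh12 by 0.68 ± 0.17 (0.0168) and Abca4 by 0.64 ± 0.18 (0.0279). Without both lens-bearing libraries only the call of Rlbp1 remained (adjusted p = 0.0188), and Rdh12 and Abca4 had adjusted p = 0.0701 and 0.0952. The call of Rlbp1 held in 20 of 20 other settings, that of Rdh12 in 16 and that of Abca4 in 13. For Abca4 it also ended without wild-type GSK replicate 1, 2 or 3 (edgeR adjusted p = 0.0651, 0.0743 and 0.0742). Rdh8 was at -0.31 ± 0.11 (edgeR adjusted p = 0.0671) and Rbp3 at 0.20 ± 0.07 (0.0631). Under inner retina scaling Rbp3 was called higher (0.36, adjusted p = 0.00402), which made 1 higher and 3 lower, and 89.5% of all called genes were higher there, against 58.5% with TMM. Rpe65 had the widest gap, -2.27 ± 0.73, which did not pass (edgeR adjusted p = 0.0565). It passed in 4 other settings: with a replicate block (adjusted p = 0.0333), without rd10 GSK replicate 1 (0.0436), with limma-voom (0.0106) and with DESeq2 (0.0174). The changes of Rgr, Lrat, Rdh5 and Rdh10 were -1.46, -0.67, -0.66 and 0.16, none called. The 18 epithelium markers had 1 higher, 4 lower and a median of -0.65 in the same comparison.

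Other genes that handle retinoids were read from 4 lists. Of 10 tested retinoid dehydrogenases and reductases outside the 10 genes (14 listed), 2 fell and 3 rose in rd10 saline against wild-type saline, and 2 rose and 2 fell in rd10 GSK against rd10 saline, near the shares of all tested genes called (40.5% and 32.9%). The 2 that fell and then rose were Dhrs3, a retinal reductase found in cone photoreceptors among other cells (-0.89 ± 0.07, then 0.72 ± 0.06), and Rdh11, a retinal reductase of several retinal layers (-0.76 ± 0.06, then 0.54 ± 0.05), with edgeR adjusted p of at most 3.07e-05. Dhrs3 averaged 78.0 ± 4.29 CPM in rd10 GSK, 47.3 ± 3.38 CPM in rd10 saline, 79.0 ± 2.07 CPM in wild-type GSK and 87.6 ± 1.46 CPM in wild-type saline. Among those that rose in rd10 saline were Dhrs4 (0.75 ± 0.12) and Rdh1 (1.63 ± 0.37), and these 2 fell with GSK in rd10 (-0.62 ± 0.11 and -1.06 ± 0.31). The list's medians were 0.05 and 0.03.

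Of 16 tested genes of retinoid binding, uptake and esterification (19 listed), 4 rose and 2 fell in rd10 saline, and 3 rose and 3 fell in rd10 GSK against rd10 saline, with medians of 0.05 and 0.12. These counts, too, were near the 40.5% and 32.9% of all tested genes called. Scarb1, a receptor through which cells take up lipoproteins and carotenoids, fell (-0.69 ± 0.06) and then rose (0.34 ± 0.05), as did Awat2, an acyltransferase that can esterify retinol (-1.15 ± 0.32, then 0.89 ± 0.29). Lpl (0.31, then -0.48) and Slc27a1 (0.30, then -0.37), which act in lipid uptake, moved the other way to Scarb1, and Crabp2, a retinoic acid-binding protein, rose in rd10 GSK against rd10 saline (0.93 ± 0.23).

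Of 12 genes of retinoic acid synthesis, breakdown and reception, 3 rose and 2 fell in rd10 saline and 3 rose and 3 fell in rd10 GSK against rd10 saline (medians 0.43 and 0.11), beside 40.5% and 32.9% of all tested genes called. Aldh1a1, which makes retinoic acid from retinal, averaged 107 ± 33.3 CPM in rd10 GSK, 200 ± 20.8 CPM in rd10 saline, 47.9 ± 6.32 CPM in wild-type GSK and 51.2 ± 6.09 CPM in wild-type saline. It rose by 1.97 ± 0.26 in rd10 saline and fell by 0.91 ± 0.22 with GSK in rd10. The receptor genes Rarg (0.89, then -0.33) and Rarb (0.64, then -0.49) had the same signs, and Rxra (-0.70, then 0.33) and Rara (-0.35, then 0.36) the opposite ones. Of the opsin genes, Rrh, the epithelial opsin peropsin and 1 of the 18 epithelium markers, fell with GSK in rd10 (-0.73 ± 0.14). None of these 4 lists had a called gene in wild-type GSK against wild-type saline.

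Some of these calls were fragile. In rd10 saline against wild-type saline, those of Rdh1, Awat2, Lpl, Slc27a1 and Rarb ended without 1 or the other wild-type saline library (adjusted p = 0.058 to 0.254). In rd10 GSK against rd10 saline, those of Rdh1, Lpl, Slc27a1, Aldh1a1, Rarb and Rarg ended under inner retina scaling (adjusted p = 0.0516 to 0.898), and those of Awat2 and Rarg ended in 13 and 15 of 20 other settings. The bipolar and ganglion cell markers used for that scaling mostly fell in this comparison. The calls of Dhrs3, Rdh11, Dhrs4, Scarb1, Rxra and Rara held in both comparisons under every setting run.

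The genes whose log2 CPM ran most like those of each visual-cycle gene over the 11 libraries differed by compartment. They are given with Pearson's r as a description, since genotype and treatment set most of the spread that the libraries share. Rdh8 lay close to Pacsin2 and Pde6a (r = 0.996 each), Rdh12 to Pde6g, Ano2 and Rtbdn (0.998), and Abca4 to Rgs9bp, Slc24a1 and Tnfaip3 (0.999). Pde6a, Pde6g and Slc24a1 are phototransduction genes of rods. Rbp3 lay closest to Frmpd1, Podxl and March1 (0.995, 0.995 and 0.992), and its r with the other photoreceptor genes was lower, at 0.931 with Rdh8, 0.895 with Abca4 and 0.870 with Rdh12, than the 0.983 to 0.991 among those 3.

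Rlbp1 ran closest to Map6, Rtn4 and Scgn (r = 0.980, 0.966 and 0.966), none of them on the Müller glia list, and Rdh10 to Uap1l1, Gpnmb and Plscr1 (0.967, 0.965 and 0.959). Some neighbours of the epithelial-type genes were on the epithelium list or were such genes themselves. Others named below, Car12, Col8a2, Cpxm2 and H2al2a, were neither. Cpxm2 was on a list of ciliary body and choroid markers, and H2al2a averaged only 0.346 CPM. Slc16a8, a lactate transporter of the pigment epithelium, was among the 3 closest to Rgr (0.990), Rpe65 (0.956) and Lrat (0.952). Rgr was also close to Car12 and Col8a2 (0.977 and 0.974), Rdh5 to Car12, Cpxm2 and Lrat (0.959, 0.958 and 0.951), Rpe65 to H2al2a and Slc6a20a (0.961 and 0.960) and Lrat to Rgr (0.956). Among the 4, r was 0.940 to 0.956 for Rgr with the other 3, and lowest between Rdh5 and Rpe65 (0.819) and between Rpe65 and Lrat (0.844).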

How the data were processed

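The authors deposited raw read counts per gene for 37991 Ensembl genes in 11 libraries, all used here. Per the submitters' processing notes, bcl2fastq, HISAT2 2.1.0, HTSeq and edgeR were used with builds NCBIM37 and mm9; for the counting, neither strand setting nor annotation is given in the sources used here, which leaves counts of overlapping genes uncertain. Symbols and exon lengths came from GENCODE M21, and promoter windows from RefSeq (GRCm38.p6). Symbols matched 32919 identifiers; the 5072 unmatched held 0.627% of counts.

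The 10 genes, the gene lists and the tests were chosen with earlier results of these data known. After filterByExpr (10 counts at least, total of 15), counts were scaled by TMM, and fitted with 1 coefficient per group over all 11 libraries (edgeR 4.0.16, glmQLFit robust, glmQLFTest, R 4.3.3). SE is the fold change over the square root of F. Pseudocounts of 2 entered correlations. Alternatives were DESeq2 1.42.0 size factors and its Wald test, limma 3.58.1 voom, scaling on bipolar, amacrine and ganglion cell markers, no filter, a replicate block, fits of the compared groups only, each library left out, and both lens-bearing libraries left out. Named list genes were called, averaged at least 1 CPM, and were limited to 6 per list and comparison. The code was tested on simulated counts. The labels place each library in a separate animal by genotype and treatment. The p-values rest on a spread between animals estimated jointly over all 4 groups, which was unequal. Between pairs of replicates, chi-square per degree of freedom of the counts was 32.4 to 49.4 in rd10 GSK and 6.48 to 16.3 in rd10 saline. It was 3.72 to 6.94 in wild-type GSK and 4.41 in wild-type saline, so p-values of the wild-type comparison also carry rd10 spread. A few genes that these rules would name are not reported here.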

Additional observations from a re-analysis of the deposited data

Results flagged for a closer look

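The effect of GSK differed between rd10 and wild-type retinas for 5 of the 10 genes by the interaction term of the fit (rd10 GSK over rd10 saline, relative to wild-type GSK over wild-type saline). The same term called 12.5% of all tested genes. The difference was 1.773 on the log2 scale for Rdh12, 1.635 for Abca4, 1.589 for Rbp3 and 1.514 for Rdh8, and -0.9632 for Rlbp1. The Rlbp1 call ended without either wild-type saline library and without both lens-bearing libraries (edgeR adjusted p = 0.13). No group held enough libraries for a check of single outlying values.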

How the results depend on the processing

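Of 990 values of single genes over 20 other settings, 905 kept direction and side of the threshold, 16 lost the call, 30 gained one and 39 changed sign. Of 18 called changes none changed sign and 14 held in every setting. The number of the 10 genes called in rd10 GSK against wild-type GSK, 3 in the text, was 6 with the replicate block, 6 with the DESeq2 Wald test, 5 with limma-voom, 1 without both lens-bearing libraries and 1 with only the compared groups fitted; the block, the Wald test and voom each added Rpe65, the block and voom Rgr, the block Rdh5, and the Wald test Rdh8 and Rbp3 (higher); in wild-type GSK against wild-type saline it was 1, not 0, with only those groups fitted. With 1 library left out the counts ran from 4 to 7 (rd10 saline against wild-type saline), 5 to 8 (rd10 GSK against rd10 saline, 8 without rd10 GSK replicate 1), 0 to 0 (wild-type), 4 to 6 (interaction) and 1 to 5 (rd10 GSK against wild-type GSK). The causes were not tested. Whether replicate numbers pair animals is not stated, and correlations between libraries could not settle it. Over 15 same-numbered pairs r was -0.19 to 0.39, with 6 over 0.1. In 15 of 30 combinations a library correlated best with its own number. The block also called 6 and 7 of the 10 genes in the first 2 comparisons.

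Sign changes touched uncalled values only. The Rlbp1 change in rd10 saline against wild-type saline was -0.00592 with DESeq2 size factors, -0.0321 with inner retina scaling, -0.00124 without the filter, -0.0283 with the block, -0.00486 with only the compared groups, -0.000421 with voom, -0.00592 with the Wald test and -0.00837 with the epithelium covariate. Rdh5 in that comparison was 0.054 without the lens-bearing libraries. The covariate gave -0.22 for Rdh5 in rd10 GSK against rd10 saline, 0.10 for Rdh5 in rd10 GSK against wild-type GSK, 0.19 for Rdh5 in the interaction, and 0.0318 for Rdh8, 0.22 for Abca4, -0.16 for Rgr and -0.40 for Rdh5 in the wild-type comparison. Inner retina scaling gave 0.0662 for Abca4 there and 0.16 for Rdh5 in the interaction, and leaving out the lens-bearing libraries gave -1.01 for Rgr and -0.99 for Lrat in the interaction. With 1 library left out the ranges that crossed 0 were -0.0462 to 0.0707 (Rlbp1) and -1.20 to 0.0649 (Rdh5) in rd10 saline, -0.0813 to 0.00219 (Abca4, wild-type), -0.502 to 1.06 (Rgr), -0.722 to 0.54 (Rdh5), -1.10 to 0.276 (Rpe65) and -0.435 to 1.16 (Lrat) in the interaction, and -0.224 to 0.354 (Rdh10, rd10 GSK against wild-type GSK).

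Over all tested genes, inner retina scaling moved the median change to 0.31 in rd10 GSK against rd10 saline, 0.10 in the wild-type comparison, 0.20 in the interaction and 0.16 in rd10 GSK against wild-type GSK. Calls in rd10 GSK against rd10 saline (5621) were 8854 with that scaling, 3588 with only the compared groups and 2843 with the covariate; those in rd10 saline (6919) were 4081 without the lens-bearing libraries and 4435 to 7506 with 1 library left out. The 91 wild-type calls ran from 10 (covariate) to 916 (compared groups only), with 12 without the lens-bearing libraries, 38 with the block, 52 with voom, 181 with inner retina scaling and 188 with the Wald test. The 2131 interaction calls became 3598 with inner retina scaling and 524 without the lens-bearing libraries, and the 4484 of rd10 GSK against wild-type GSK became 2213 without them. Epithelial genes rest on few reads (25 for Rpe65 in rd10 GSK replicate 1), which limits their comparisons.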
